A study of Mus musculus with 14 samples.

Results

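The transcripts followed here were those of 31 genes of cholesterol and fatty acid synthesis in hippocampal RNA of mice labelled LPAR2-/- and of wild-type (WT) mice. The genes were chosen by name as targets or regulators of the sterol-responsive synthesis programme, with earlier results of these data known. All 31 were among the 24421 genes of the count table, and all 31 passed the filter on low counts that left 14897 genes for testing. By role they were 8 genes of the mevalonate pathway, 10 of squalene formation and of the sterol ring, 6 of SREBP regulation and sterol transport, and 7 of fatty acid synthesis.

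RNA of 7 LPAR2-/- mice and 7 WT mice was sequenced after depletion of ribosomal RNA, with 1 library per mouse. LPAR2 is a receptor for lysophosphatidic acid, and the LPAR2-/- mice lack a part of exon 2 of its gene in every tissue. Both groups consisted of naive male mice labelled 129.C57Bl6. The LPAR2-/- mice were bred as homozygotes beside a separate control colony of mixed C57BL/6 and 129/SvJ background, so that genotype and colony cannot be told apart. The age is unclear, since it is 10 to 12 weeks in the labels and middle age or older in the deposited design text. The labels and the study's methods name the hippocampus, and its results name the dentate gyrus.

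Cells make cholesterol from acetyl-CoA through mevalonate, farnesyl diphosphate, squalene and lanosterol, and saturated and monounsaturated fatty acids from acetyl-CoA through malonyl-CoA. Most of these enzymes are targets of the sterol regulatory element-binding proteins (SREBP), which SCAP carries from the endoplasmic reticulum to the Golgi apparatus for cleavage when sterols are low, and which INSIG proteins hold back when sterols are plentiful. The brain makes its own cholesterol because lipoproteins of the blood do not cross the blood-brain barrier, and oligodendrocytes use large amounts of it and of fatty acids for myelin, while astrocytes supply neurons.

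Each library held between 15434620 and 23258949 counts. Lpar2, the targeted gene, had between 8.20 and 12.3 CPM (counts scaled to a common library size) in the mice labelled LPAR2-/- and between 1.51 and 3.23 CPM in WT mice. The groups did not overlap (p = 0.000583 by exact two-sided permutation, the lowest value this design can give), and the direction was opposite to what the label of a knockout leads one to look for. Counts summed over the whole gene cannot show whether a transcript carried the deletion. Groups are therefore named by their labels throughout, and each difference is that of the libraries labelled LPAR2-/- minus the WT libraries. Values of the markers of hippocampal principal cells overlapped between the groups (summed CPM 702 to 802 and 669 to 794). In bulk tissue, fewer cells of a type and less RNA per cell cannot be told apart.

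Of the 31 genes, 3 were higher (Mvk, Lss and Srebf1) and 1 was lower (Cyp51) in the mice labelled LPAR2-/- at an adjusted p under 0.05 (edgeR quasi-likelihood test, Benjamini-Hochberg adjustment over all genes tested). These 4 genes make up 12.9% of the list, beside 6.77% of all genes tested that were called. In single directions the background was 3.32% higher and 3.46% lower. At an unadjusted p under 0.05 there were 9 of the 31 genes, 6 higher and 3 lower, beside 22.4% of all genes tested. The log2 fold change was above 0 for 22 genes and below 0 for 9, with a median of 0.05 beside 0.003 over all genes tested. This median was 0.10 without mouse LPAR2-/- 6, 0.09 without LPAR2-/- 7 and 0.09 without WT 1. The count at an unadjusted p under 0.05 was 15 without mouse LPAR2-/- 6, 14 without LPAR2-/- 3 and 6 together, and 6 without WT 4. In no gene of the list were the groups free of overlap, beside 1.77% of all genes tested. A list of 31 genes is too short to tell 0 from this share. DESeq2 called the same 4 genes. The count of higher genes rested on single mice and on the design. It was 1 with mice blocked by number (replicate block), 0 without mouse LPAR2-/- 4 or 5 or WT 2, 5 or 6, 1 without LPAR2-/- 1 or WT 4, and 5 without WT 1. The count of lower genes was 2 without mouse LPAR2-/- 3 and otherwise 1 in these fits.

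**Figure D1:**
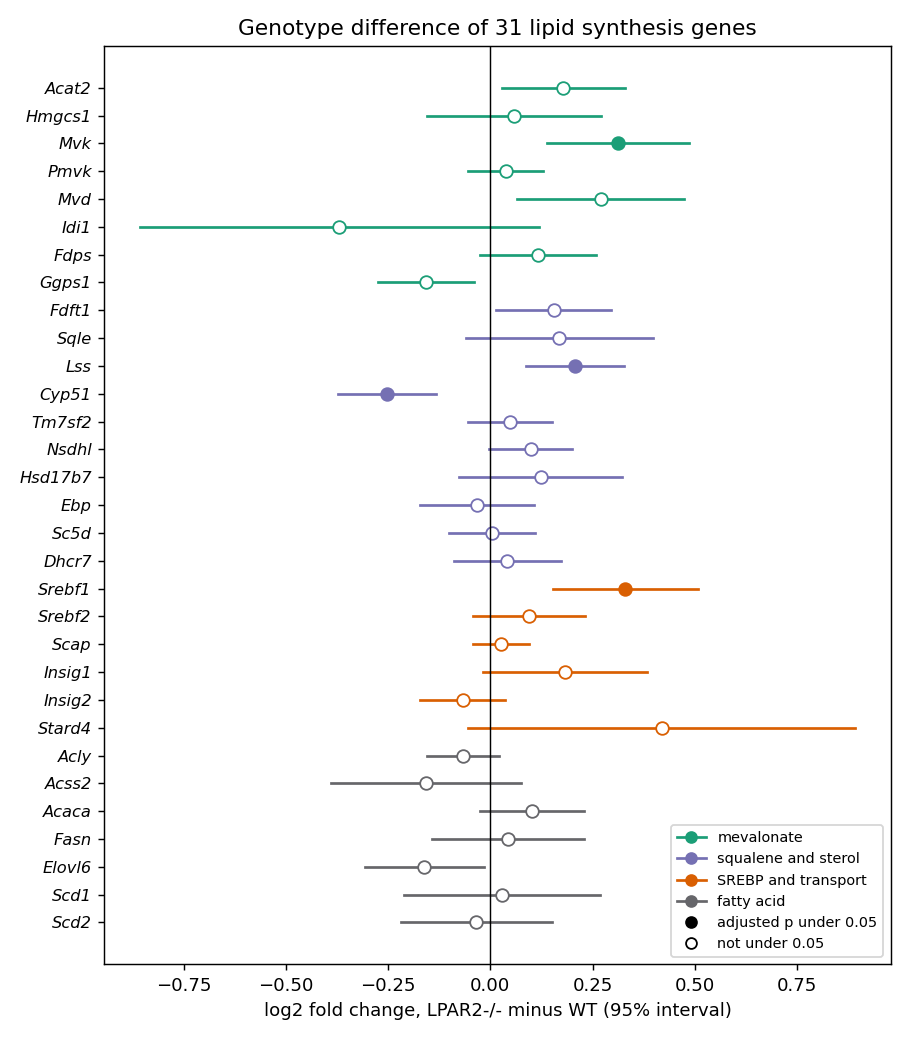
Log2 fold change of each of the 31 genes (x axis, libraries labelled LPAR2-/- minus WT, 7 mice each, edgeR) in pathway order, with 95% intervals as lines; filled points have an adjusted p under 0.05. The filled points are Mvk, Lss and Srebf1 to the right of 0 and Cyp51 to the left, and the intervals are widest for Idi1 and Stard4.

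Levels of different genes were compared per length, as TPM (counts per exon length, scaled to a common sum). Scd2, a stearoyl-CoA desaturase, had the highest level of the 31 genes with a mean of 666 TPM in WT mice. It was followed by Hmgcs1 with 166, Acly with 130, Srebf2 with 119 and Fasn with 108 TPM. At the other end stood Acaca with 7.42, Stard4 with 4.58 and Idi1 with 1.15 TPM. Idi1 rested on only 9 to 31 counts per mouse. The enzymes of the sterol ring stood between these ends, and of them Lss had 15.2 and Hsd17b7 13.6 TPM. Lss and Hsd17b7 are neighbours in this order whose ranges over the mice overlapped.

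**Figure D2:**
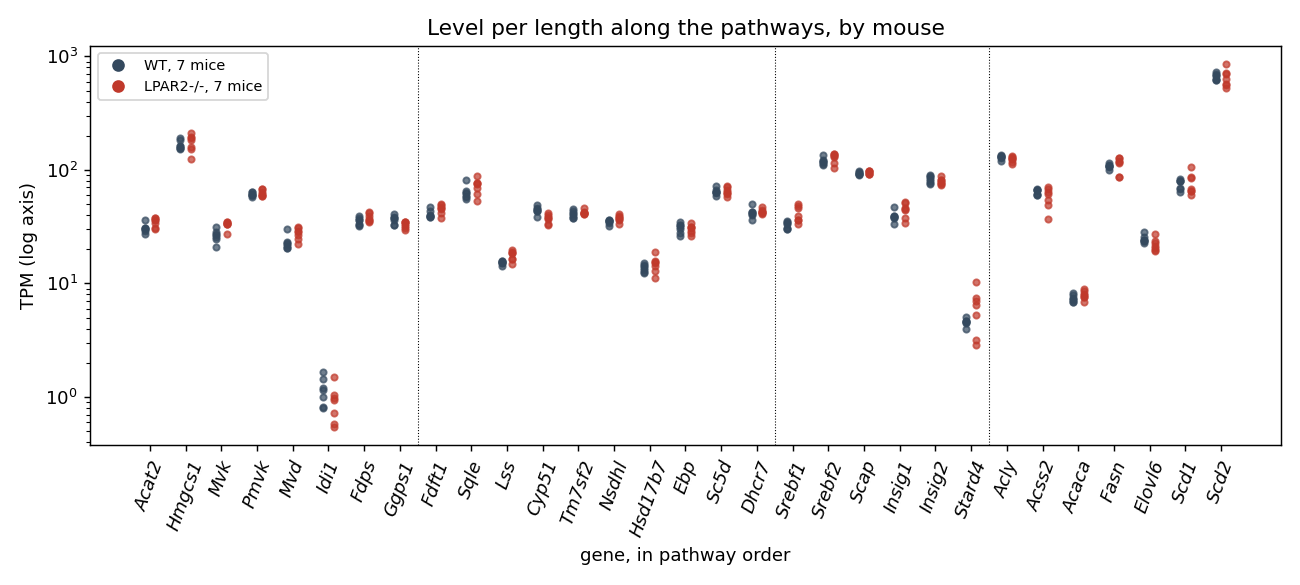
Level per length (TPM, log axis) of the 31 genes in pathway order, with 1 point per mouse, 7 WT and 7 labelled LPAR2-/-; dotted lines part the roles. Levels ran from about 1 TPM for Idi1 to 666 TPM for Scd2 in WT mice, and the genotypes overlapped in each gene.

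Promoters are shown for 3 of the genes past the threshold and for Hmgcs1, to show where the marked motifs lie. These were a single form of the sterol element bound by SREBP, and the CCAAT motif bound by its partner NF-Y. The exact letters of that form were found in Hmgcs1 alone. Other forms of the element were not searched. The RefSeq table (build GRCm38.p6) holds a promoter, from 250 bases before to 50 bases after the start of transcription, for 25 of the 31 genes. Each sequence is written 5′ to 3′ on the strand of the gene. Capitals mark CCAAT, also as its reverse complement ATTGG, and the sterol element TCACNCCAC. The windows are chr5:114444019-114444318 on the plus strand for Mvk, chr10:76531355-76531654 on the plus strand for Lss, chr5:4104648-4104947 on the minus strand for Cyp51 and chr13:119690101-119690400 on the plus strand for Hmgcs1.
Mvk: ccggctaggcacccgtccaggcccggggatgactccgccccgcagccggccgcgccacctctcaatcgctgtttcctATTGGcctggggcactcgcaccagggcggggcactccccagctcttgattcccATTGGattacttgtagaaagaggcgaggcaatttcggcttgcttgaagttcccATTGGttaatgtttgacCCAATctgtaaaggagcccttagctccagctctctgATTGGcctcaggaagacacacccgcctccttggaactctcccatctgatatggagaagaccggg
Lss: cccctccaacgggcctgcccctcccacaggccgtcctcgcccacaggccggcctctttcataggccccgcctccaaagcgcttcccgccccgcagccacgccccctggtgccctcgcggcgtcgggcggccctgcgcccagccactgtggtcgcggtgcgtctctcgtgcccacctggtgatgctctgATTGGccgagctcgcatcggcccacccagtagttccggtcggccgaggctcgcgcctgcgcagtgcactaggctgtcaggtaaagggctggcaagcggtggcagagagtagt
Cyp51: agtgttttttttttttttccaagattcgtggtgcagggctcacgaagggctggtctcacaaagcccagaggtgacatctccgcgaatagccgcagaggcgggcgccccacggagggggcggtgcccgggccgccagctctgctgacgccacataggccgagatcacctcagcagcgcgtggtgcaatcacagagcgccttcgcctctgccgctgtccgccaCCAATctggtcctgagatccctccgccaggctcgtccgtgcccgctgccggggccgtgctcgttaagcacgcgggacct
Hmgcs1: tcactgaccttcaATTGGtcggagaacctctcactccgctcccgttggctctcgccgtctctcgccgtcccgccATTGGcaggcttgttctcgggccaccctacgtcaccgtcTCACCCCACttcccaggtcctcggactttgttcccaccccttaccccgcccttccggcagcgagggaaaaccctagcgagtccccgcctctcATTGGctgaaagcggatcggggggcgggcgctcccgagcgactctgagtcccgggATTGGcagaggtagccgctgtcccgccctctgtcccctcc

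Mvk held 5 CCAAT motifs in its window, Hmgcs1 held 4, and Lss and Cyp51 held 1 each. Over the 25 genes with a promoter, CCAAT was found on either strand in 21, beside 41.1% of all genes in the table. The GC box GGGCGG was found in 20, beside 38.2% of all genes in the table and 66.8% of those tested here. The exact form TCACNCCAC of the sterol element, in 1.44% of all genes, was found in Hmgcs1 alone of the 25. A window without this form may still hold another form of the element. Of the 3 promoter entries of Srebf1, 2 held a CCAAT. In Hmgcs1 the sterol element and the CCAAT motifs did not overlap. The matches describe the letters in these windows. Genes that rose (Mvk, Lss) and the gene that fell (Cyp51) each held CCAAT.

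In the mevalonate pathway, Mvk, which encodes mevalonate kinase, rose. Its level was 15.2 (lowest), 18.6 (median) and 19.8 CPM (highest) in mice labelled LPAR2-/-, and 11.6, 14.9 and 18.1 CPM in WT mice. Of the 7 mice labelled LPAR2-/-, 6 lay above every WT mouse, and mouse LPAR2-/- 6 lay within the WT range, whose highest value was that of mouse WT 1. The means were 18.4 ± 1.51 and 14.8 ± 1.97 CPM (SD, n = 7 each), and the log2 fold change was 0.31 ± 0.0824 (SE; adjusted p = 0.0320, edgeR). The exact two-sided permutation test of the log2 CPM gave p = 0.0035, unadjusted. Mvk lies on chr5:114444269-114460590 (mm10, plus strand). Mmab, which begins on the other strand within the promoter window of Mvk, differed by 0.06 on the log2 scale (adjusted p = 0.488). Mvk passed the threshold in 5 of 14 fits with a mouse left out. Without mouse LPAR2-/- 1, 2, 4, 5 or 7, or WT 2, 4, 5 or 6, its adjusted p was between 0.0526 and 0.0693, and with the replicate block it was 0.0583.

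Of the other mevalonate genes, none passed the threshold. Mvd, the mevalonate diphosphate decarboxylase, had 16.6 ± 1.91 CPM in mice labelled LPAR2-/- and 13.7 ± 2.21 CPM in WT mice, with a log2 difference of 0.27 (adjusted p = 0.106, edgeR). All 7 mice labelled LPAR2-/- were above the WT median, and mouse WT 1 with 18.6 CPM was the highest of all. Acat2, the cytosolic acetoacetyl-CoA thiolase, differed by 0.18 on the log2 scale (adjusted p = 0.148). Without mouse WT 1, Acat2 (0.23, adjusted p = 0.0306) and Mvd (0.36, adjusted p = 0.00892) passed the threshold. Ggps1, which makes geranylgeranyl diphosphate and so leads away from sterols, had 25.1 ± 1.69 and 28 ± 1.98 CPM, with a log2 difference of -0.16 (adjusted p = 0.102), with all 7 mice labelled LPAR2-/- at or below the WT median. Hmgcs1, the HMG-CoA synthase of the cytosol, had a log2 fold change of 0.06 (95% interval -0.15 to 0.27). With 1 mouse left out it was between 0.004 and 0.12. Hmgcs1 ranged from 143 to 243 CPM in mice labelled LPAR2-/-, wider than the 178 to 225 CPM of WT mice. Pmvk (phosphomevalonate kinase) had 0.04, Fdps (farnesyl diphosphate synthase) 0.12 and Idi1 (isopentenyl diphosphate isomerase) -0.37, with intervals that included 0. 

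In the branch from squalene to cholesterol, 1 gene rose and 1 fell. Lss, which encodes lanosterol synthase and closes the sterol ring, had 30.1, 37.6 and 40.2 CPM (lowest, median, highest) in mice labelled LPAR2-/-, and 29.1, 31 and 32.7 CPM in WT mice. Of the 7 mice labelled LPAR2-/-, 6 lay above every WT mouse, the exception being mouse LPAR2-/- 6. The means were 35.9 ± 3.5 and 31.1 ± 1.17 CPM (SD, n = 7 each), and the log2 fold change was 0.21 ± 0.0568 (SE; adjusted p = 0.0376, edgeR). The exact two-sided permutation test gave p = 0.00816, unadjusted. Lss lies on chr10:76531605-76557139 (mm10, plus strand) and overlaps 4930483K19Rik on the other strand, which the stranded counting keeps apart. It passed the threshold in 5 of 14 fits with a mouse left out. Without mouse LPAR2-/- 1, 3, 4 or 5, or WT 2, 3, 4, 5 or 6, its adjusted p was between 0.0587 and 0.0846, and with the replicate block it was 0.0844.

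Cyp51, which encodes lanosterol 14-alpha-demethylase, the enzyme that acts on the product of Lss, fell. It had 45.7, 53.1 and 57.5 CPM (lowest, median, highest) in mice labelled LPAR2-/-, and 54.2, 63.5 and 67.0 CPM in WT mice. All 7 mice labelled LPAR2-/- lay below the WT median and 5 lay below every WT mouse, and the lowest WT mouse was WT 7. The means were 52.2 ± 4.53 and 62.2 ± 3.97 CPM (SD, n = 7 each), and the log2 fold change was -0.25 ± 0.0568 (SE; adjusted p = 0.0155, edgeR). The exact two-sided permutation test gave p = 0.00175, unadjusted. Cyp51 lies on chr5:4080674-4104697 (mm10, minus strand), and 0 of its 13 tested neighbours within 1 Mb passed the threshold in edgeR. It was the only one of the 4 genes that passed in all 14 fits with a mouse left out.

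The other sterol genes did not pass the threshold. Fdft1, the squalene synthase, showed a log2 difference of 0.15 (adjusted p = 0.179, edgeR) and Sqle, the squalene epoxidase and a rate-limiting step, one of 0.17 (adjusted p = 0.382), or 0.11 without mouse LPAR2-/- 3. Sqle ranged from 47.3 to 78.3 CPM in mice labelled LPAR2-/- and from 48.9 to 74.1 CPM in WT mice, so that the groups covered nearly the same range. Nsdhl, a sterol dehydrogenase of the demethylation steps, had 26.7 ± 1.6 and 25 ± 1.24 CPM, with 6 of 7 mice labelled LPAR2-/- above every WT mouse (log2 fold change 0.10, adjusted p = 0.242). Hsd17b7, the ketoreductase of the same complex, had 0.12 (95% interval -0.08 to 0.32), or 0.05 without mouse LPAR2-/- 3. Near 0 were Tm7sf2 (a sterol reductase, 0.05), Dhcr7 (which makes cholesterol from 7-dehydrocholesterol, 0.04), Sc5d (sterol desaturase, 0.0035) and Ebp (sterol isomerase, -0.03). With 1 mouse left out, Tm7sf2 lay between 0.03 and 0.07, Dhcr7 between 0.006 and 0.09 and Ebp between -0.06 and -0.007. Tm7sf2 overlaps Vps51 on the same strand, so that reads in the shared part may be missing from its count.

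Among the regulators, Srebf1, which encodes SREBP-1, rose. It had 47.5, 53.8 and 67.9 CPM (lowest, median, highest) in mice labelled LPAR2-/-, and 40.8, 46.1 and 49.3 CPM in WT mice. Of the 7 mice labelled LPAR2-/-, 6 lay above every WT mouse, the exception being mouse LPAR2-/- 2, and mice 3, 4 and 5 were the highest. The means were 56.9 ± 8.48 and 45.3 ± 3.61 CPM (SD, n = 7 each), and the log2 fold change was 0.33 ± 0.0836 (SE; adjusted p = 0.0277, edgeR). The exact two-sided permutation test gave p = 0.0035, unadjusted. Srebf1 lies on chr11:60199089-60220604 (mm10, minus strand). Counts per gene do not part its transcripts for SREBP-1a and SREBP-1c, which begin at different promoters. It passed the threshold in 9 of 14 fits with a mouse left out. Without mouse LPAR2-/- 4 or 5, or WT 2, 5 or 6, its adjusted p was between 0.0518 and 0.0660.

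**Figure D3:**
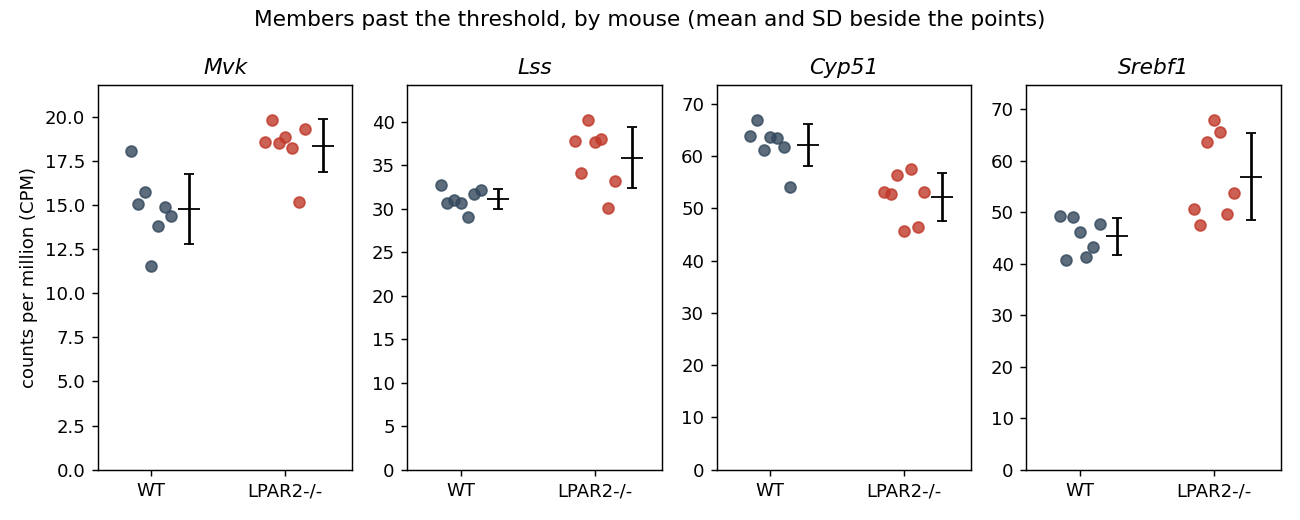
CPM of Mvk, Lss, Cyp51 and Srebf1 in each mouse (points, 7 WT and 7 labelled LPAR2-/-), with mean and SD beside them; each y axis starts at 0. Mvk, Lss and Srebf1 are higher and Cyp51 is lower in the mice labelled LPAR2-/-, and each gene has at least 1 mouse within the range of the other genotype.

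Srebf2, which encodes SREBP-2, the main activator of the sterol genes, had 187 ± 19.4 and 176 ± 13.4 CPM, with a log2 difference of 0.09 (95% interval -0.04 to 0.23). Scap (SREBP escort protein) had 0.03 with the narrow interval of -0.04 to 0.09. Insig1, itself a target of SREBP, had 0.18 (adjusted p = 0.268, edgeR) and Insig2 -0.07 (adjusted p = 0.446). Stard4, a carrier of cholesterol between membranes, had the highest log2 fold change of the list with 0.42 but also a standard error of 0.222 (adjusted p = 0.283), and it was 0.24 without mouse LPAR2-/- 3. It had 2.75, 6.26 and 9.87 CPM (lowest, median, highest) in mice labelled LPAR2-/- and 3.81, 4.45 and 4.90 CPM in WT mice. In Stard4, 5 mice labelled LPAR2-/- lay above and 2 lay below every WT mouse. Its coefficient of variation was 42.4% in mice labelled LPAR2-/- and 7.50% in WT mice.

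In fatty acid synthesis, 0 of 7 genes passed the threshold in edgeR or DESeq2, beside 6.77% of all genes tested in edgeR. An unadjusted p under 0.05 was found for 1 (Elovl6), beside 22.4% of all genes tested. Elovl6, the elongase of saturated chains, had 42.2 ± 5.30 CPM in mice labelled LPAR2-/- and 47.2 ± 3.00 CPM in WT mice, with a log2 difference of -0.16 (adjusted p = 0.174, edgeR). It had its highest value of that group in mouse LPAR2-/- 3, and without this mouse the log2 fold change was -0.22 (adjusted p = 0.0211). Acly, the ATP-citrate lyase that supplies cytosolic acetyl-CoA, had -0.07, and Acss2, which makes acetyl-CoA from acetate, had -0.16 (95% interval -0.39 to 0.07), or -0.08 without mouse LPAR2-/- 2 and -0.25 without mice 3 and 6 of that label. Acaca, the acetyl-CoA carboxylase, had 0.10 and Fasn, the fatty acid synthase, 0.04. With 1 mouse left out, the value of Fasn lay between 0.008 and 0.10. Fasn ranged from 273 to 410 CPM in mice labelled LPAR2-/- and from 316 to 381 CPM in WT mice. Scd1 and Scd2, which introduce the double bond, had 0.03 and -0.03. For Scd2, with 926 to 1506 CPM in mice labelled LPAR2-/- and 1105 to 1252 CPM in WT mice, the 95% interval was -0.22 to 0.15.

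For most genes of the list the spread was wider among the mice labelled LPAR2-/-. The SD of the log2 CPM was larger in the mice labelled LPAR2-/- for 24 of 31 genes (77.4%), beside 57.2% of all genes tested. Mouse LPAR2-/- 3 had the highest value of all 14 mice for 13 genes, and mouse LPAR2-/- 6 the lowest for 10. Over all genes tested, mouse LPAR2-/- 3 was highest in 10.1% and mouse LPAR2-/- 6 was lowest in 10.6%. The median deviation of the 31 genes from the mean of the 14 mice was 0.22 in mouse LPAR2-/- 3, -0.15 in mouse LPAR2-/- 6 and 0.10 in mouse WT 1 (log2). Mouse WT 1 was the highest of the WT mice for 15 genes. It was the highest of all 14 mice for 2 genes, beside 8.70% of all genes tested. In the other mice the median deviation lay between -0.06 and 0.09. Without mice LPAR2-/- 3 and 6, the SD was larger in the mice labelled LPAR2-/- for 18 genes (58.1%), beside 49.6% of all genes tested, and Mvk, Lss, Srebf1 and Cyp51 kept their calls, joined by Elovl6 (-0.20, adjusted p = 0.0456, edgeR). This omission was chosen after the values had been seen.

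**Figure D4:**
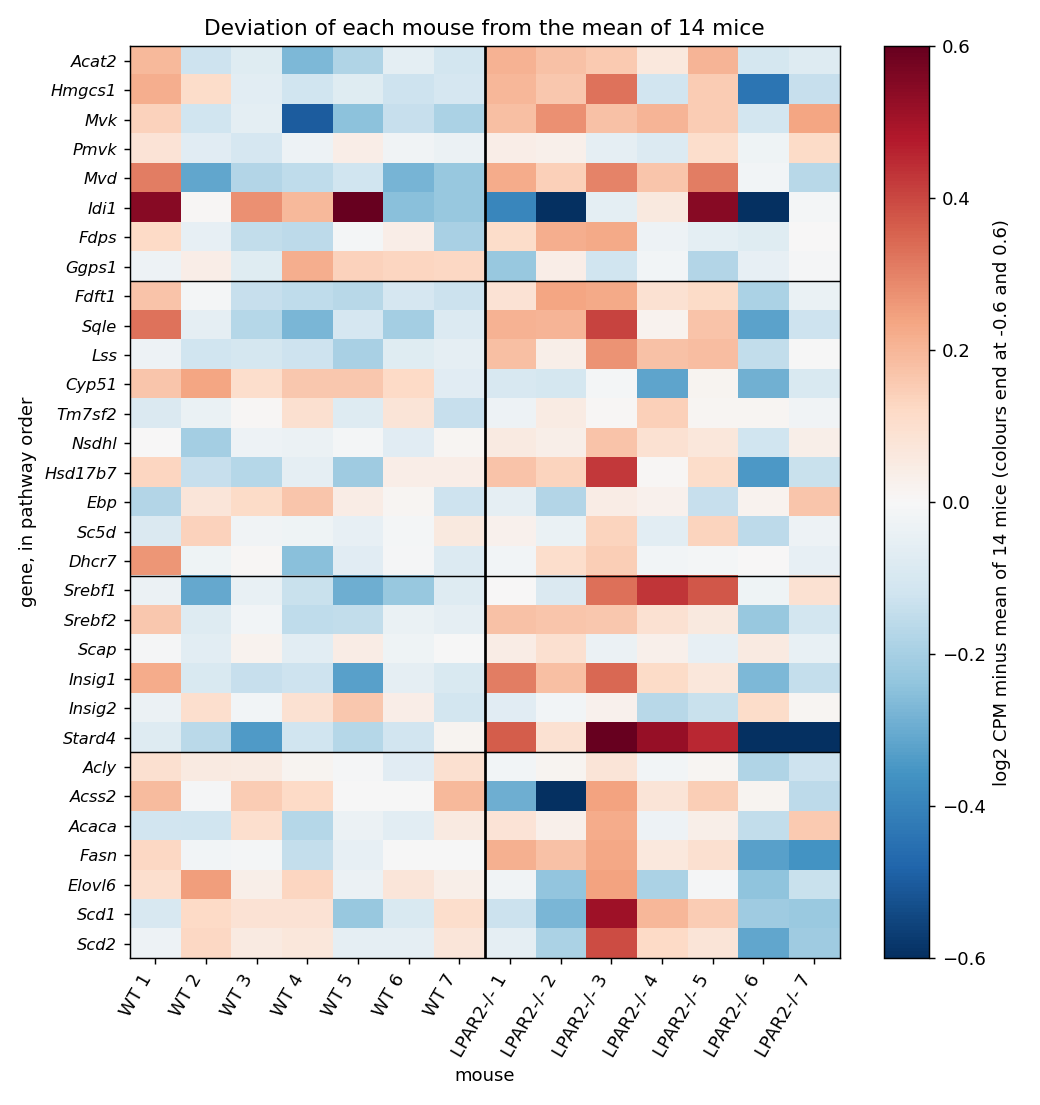
Deviation of the log2 CPM of each mouse (columns, 7 WT and 7 labelled LPAR2-/-) from the mean of 14 mice for the 31 genes (rows, in pathway order, black lines between the roles); red is above and blue below the mean, and colours end at -0.6 and 0.6. Mouse LPAR2-/- 3 is red in most rows (median 0.22) and mouse LPAR2-/- 6 blue (median -0.15).

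Genes of the list varied together across mice of a genotype. The Pearson correlation of the deviations from the genotype mean over 14 mice had a median of 0.28 over the 465 pairs, and 30.8% of the pairs were above 0.5. Over all pairs of genes tested the median was -0.001 and 8.99% were above 0.5. These points share libraries, and without mice LPAR2-/- 3 and 6 the median of the list was 0.06 with 21.3% of pairs above 0.5, beside 9.89% of all pairs. When mouse WT 1 was also left out, the median was 0.08 with 17.4% of pairs above 0.5, beside 10.6% of all pairs; both omissions were chosen after the values had been seen. Scd1 and Scd2, which are paralogs on chromosome 19, had a correlation of 0.95. Lss and Hmgcs1 had the highest median correlations with the other genes (0.64 and 0.60), and Ebp, Insig2 and Ggps1 had the lowest (-0.32, -0.31 and -0.31).

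Markers of myelinating oligodendrocytes and of oligodendrocyte precursors had their extremes in mice LPAR2-/- 3 and 6. The summed CPM of 10 markers of myelinating oligodendrocytes was 4084 in mouse LPAR2-/- 3, the highest, and 1015 in mouse LPAR2-/- 6, the lowest, and 1251 to 2129 in WT mice. Mouse WT 1, which was high in the lipid synthesis genes, had 1470. The sum of 8 markers of oligodendrocyte precursors was likewise highest in mouse LPAR2-/- 3 (156 CPM) and lowest in mouse LPAR2-/- 6 (114 CPM). The sum of 10 neuronal markers was lowest in mouse LPAR2-/- 6 (7523 CPM), highest of its group in mouse LPAR2-/- 3 (9204 CPM), and 9410 CPM in mouse WT 1. Mouse WT 7 had the highest neuronal sum (9412 CPM), and there the median deviation of the lipid synthesis genes was -0.05 (log2). In all 4 roles the median of the lipid synthesis genes was above the mean of 14 mice in mouse LPAR2-/- 3 and below it in mouse LPAR2-/- 6. Of the 31 genes, 26 were above that mean in mouse LPAR2-/- 3 and 6 in mouse LPAR2-/- 6. Their median deviations in these mice were 0.25 and -0.13 for SREBP regulation and sterol transport and 0.24 and -0.21 for fatty acid synthesis (log2). They were 0.16 and -0.15 for the sterol ring genes and 0.16 and -0.09 for the mevalonate genes. Between the genotypes the myelin sum gave p = 0.955 (exact two-sided permutation test), with 9 of 10 genes above 0 and 0 called by edgeR or DESeq2, and 0 at an unadjusted p under 0.05. The median log2 fold change of the 10 genes was 0.17 with all mice, -0.21 without mouse LPAR2-/- 3 and -0.002 with the replicate block, so that its sign rested on that mouse and on the design. The part of these cell types in the values of the lipid synthesis genes was not tested. These mice also differed in depth, with 23258949 counts in mouse LPAR2-/- 3 and 16663752 in mouse LPAR2-/- 6. Depth was lower still in mice LPAR2-/- 7 (15434620) and WT 6 (16373410). The median deviation of the lipid synthesis genes was -0.05 in each of them. The part of depth in these values was not tested. The astrocyte sum was 4982 to 5831 CPM in mice labelled LPAR2-/- and 5167 to 5898 CPM in WT mice (p = 0.218, exact permutation test).

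**Figure D5:**
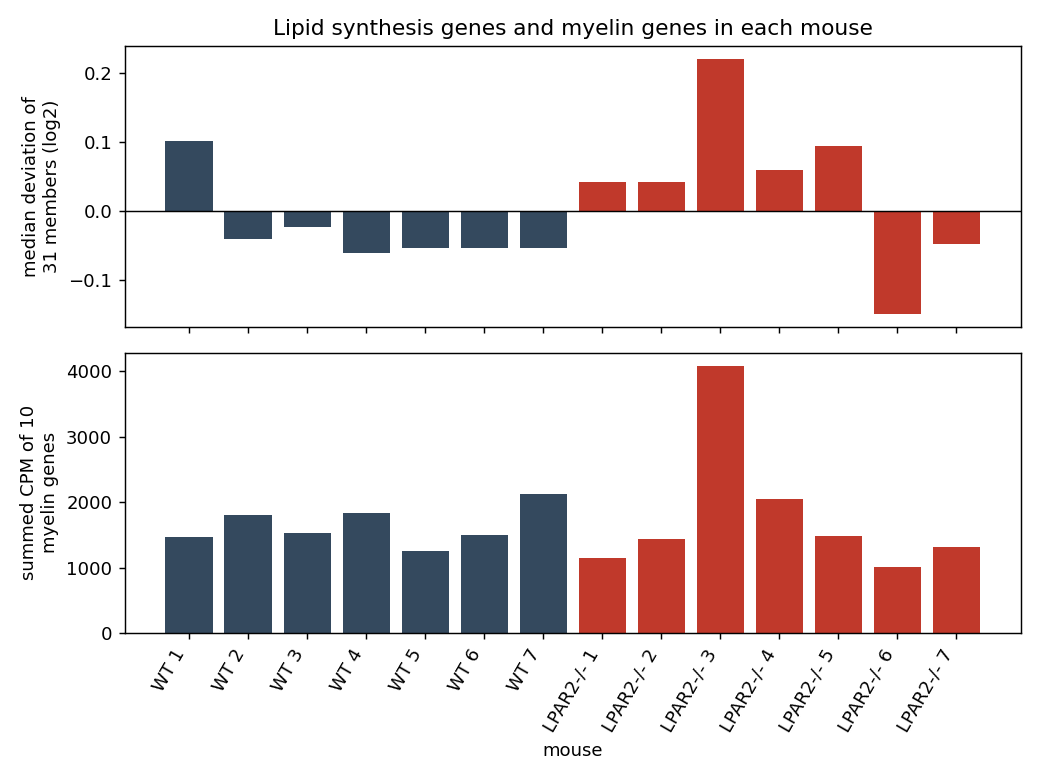
Upper panel, median deviation of the 31 lipid synthesis genes from the mean of 14 mice (log2) in each mouse; lower panel, summed CPM of 10 myelin genes in the same mice. Mouse LPAR2-/- 3 has the highest and mouse LPAR2-/- 6 the lowest bar in both panels (4084 and 1015 CPM in the lower), while mouse WT 1 is high only in the upper.

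Markers of choroid plexus were high in 1 mouse, and most markers of meningeal fibroblasts had a log2 fold change above 0. Neither sum differed between the groups at p under 0.05 (exact two-sided permutation test). The summed CPM of 9 choroid plexus markers was 292 in mouse LPAR2-/- 2 and 27.1 to 53.8 in all other mice (exact two-sided permutation test between the groups, p = 0.0577). The 4 choroid plexus genes that passed the filter were all above 0, with a median log2 fold change of 1.24, 0.68 without mouse LPAR2-/- 2, 0.70 in DESeq2, and 0.55 over those with at least 10 counts in every library. Of these, edgeR called 0, with 3 at an unadjusted p under 0.05 (2 without that mouse), and DESeq2 called Kcnj13. edgeR also called Kcnj13 without robust estimation, without mouse LPAR2-/- 3 (also when mouse 6 was left out with it) and without WT 4. Meningeal fibroblast markers had a median of 248 CPM in mice labelled LPAR2-/- and 127 CPM in WT mice (exact two-sided permutation test of the sum, p = 0.0612). By gene, 9 of these 10 markers were above 0 with a median log2 fold change of 0.88, beside 7613 of all 14897 genes tested above 0. At an unadjusted p under 0.05 in edgeR, 7 of the 10 were higher, beside 1683 of the 14897. Of the 10, Lum, a proteoglycan of connective tissue, passed the threshold (0.54, adjusted p = 0.0132, edgeR) and was also called by DESeq2. With the replicate block edgeR called 0 of them, and 7 had an unadjusted p under 0.05. Without mouse WT 4 it called 4 (Col1a1, Col1a2, Fmod and Lum, median of the list 1.28), and without LPAR2-/- 3 it called 2 (Col1a1 and Lum). The 4 haemoglobin genes were listed at 0 in every mouse. Mouse LPAR2-/- 2 had the lowest value of all mice for 4 genes of the list (Idi1, Ebp, Acss2 and Scd1) and the highest for 3 (Mvk, Fdft1 and Scap), beside 6.01% and 5.86% of all genes tested. Whether these markers bear on the lipid synthesis genes was not tested.

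A further 73 genes of lipid metabolism outside the list were grouped by role, and 66 of them were tested. None of them was higher at the threshold in edgeR, whereas DESeq2 called 2 higher (Mid1ip1 and Tecr). In edgeR, 9 had an unadjusted p under 0.05 and were higher, and 12 were lower. At the threshold 4 fell, or 6.06% of the 66 genes, beside 6.77% of all genes tested in either direction and 3.46% lower. The 21 genes with an unadjusted p under 0.05 stand beside 22.4% of all genes tested. Coq2, which prenylates the ring of coenzyme Q, fell by 0.22 on the log2 scale (53.2 ± 2.31 and 62.0 ± 2.10 CPM, adjusted p = 0.0021, edgeR), and its groups did not overlap. Elovl1, an elongase of very long chains, fell by 0.56 (14 ± 2.53 and 20.7 ± 2.50 CPM, adjusted p = 0.00807). Thrsp, a regulator of lipogenesis, fell by 0.24 (adjusted p = 0.0376), and Stard5, a sterol carrier, fell by 0.36 (adjusted p = 0.0371). Coq2 and Elovl1 passed in all 14 fits with a mouse left out, Thrsp in 6 and Stard5 in 5. The adjusted p of Thrsp was between 0.0561 and 0.0821 without mouse LPAR2-/- 1, 2, 4, 5 or 7, or WT 4, 5 or 6. That of Stard5 was between 0.0592 and 0.0843 without mouse LPAR2-/- 1, 2, 4 or 5, or WT 2, 3, 4, 5 or 6, and 0.0823 when mice were blocked by number (replicate block). Of the 18 tested genes of SREBP processing and sterol sensing, 0 were called by edgeR, 3 had an unadjusted p under 0.05, and DESeq2 called Nfya and Ube2g2 lower. This 0 depended on the settings. edgeR called Nfya lower with DESeq2 size factors, with at least 10 counts in every library, without robust estimation, and without mouse LPAR2-/- 7, WT 1 or WT 7. It called Ube2g2 lower without mouse LPAR2-/- 6 (also when mouse 3 was left out with it) or WT 7. Over the 66 genes the median log2 fold change was -0.0005, with 33 above and 33 below 0.

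Genes near the 4 called genes were counted as a measure of the surrounding chromosome. Within 1 Mb, 4 of 45 tested genes passed the threshold beside Mvk, 0 of 36 beside Lss, 0 of 13 beside Cyp51 and 2 of 40 beside Srebf1. Over all genes tested 6.77% passed.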

How the data were processed

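Hippocampal RNA was sequenced from 7 mice labelled LPAR2-/- and 7 WT mice, grouped by the sample labels. The authors deposited raw counts per gene, made with featureCounts 1.6.3 on exons for the reverse strand. Before that, reads had been trimmed (cutadapt 1.18) and mapped by STAR to the mm10 build. The summed exon length in the same file served for TPM. A second deposited table, with 28 columns of normalized values per mouse, was not used. Counts were analysed in R 4.3.3 with edgeR 4.0.16 (filterByExpr, TMM, robust quasi-likelihood F test, no covariates), and p was adjusted after Benjamini-Hochberg over 14897 genes, with 0.05 as threshold. CPM on the log2 scale used a prior count of 2. Single genes were also compared by exact two-sided permutation of the log2 CPM over 3432 arrangements, unadjusted. Replicates are separate mice. Each mouse had between 15434620 and 23258949 counts, and intervals are 95% intervals of the edgeR fit.

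Alternatives were DESeq2 1.42.0, DESeq2 size factors, the upper quartile, no filter, at least 10 counts in every library, no robust estimation, the mouse number as a block, and each mouse left out. In simulated counts of these 14897 genes, with 200 of them changed by 1 on the log2 scale, edgeR recovered 90% and DESeq2 90%, with 3.23% and 12.6% of their calls on unchanged genes; smaller changes were not simulated. No libraries of a genotype were copies (42 pairs compared, chi-square per degree of freedom at least 3.41). All genes of the list were named, and of the other lipid genes those past the threshold. The genes and lists were chosen with earlier results of these data known.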

Additional observations from a re-analysis of the deposited data

Results flagged for a closer look

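For each of the 31 genes, the highest and lowest mouse of both genotypes was compared with the rest of its group, and 7 of 62 groups had a mouse whose gap to the nearest other mouse exceeded Dixon's limit as a share of the group's range. Chance gives this in about 1 in 20 groups. In 5 genes the mouse was WT 1, above the other 6 WT mice. It had 24.8 CPM of Acat2, where the others reached 20.8 CPM, and 18.6 CPM of Mvd, where the others reached 13.8 CPM. It had 57.3 CPM of Fdft1 (others up to 50.5), 74.1 CPM of Sqle (others up to 56.9) and 202 CPM of Srebf2 (others up to 179). Mouse LPAR2-/- 6 had 15.2 CPM of Mvk, below the 18.2 to 19.8 CPM of the other mice of its label. Mouse WT 2 had 22.4 CPM of Nsdhl, below the 24.6 to 26 CPM of the other WT mice.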

How the results depend on the processing

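Of the 31 genes, DESeq2, DESeq2 size factors, the upper quartile, no filter, a minimum of 10 counts and a fit without robust estimation each gave 3 higher and 1 lower, the same genes. With each mouse left out, 0 to 5 were higher and 1 to 2 lower. The count was 0 without LPAR2-/- 4 or 5 or WT 2, 5 or 6, and 5 without WT 1. Without LPAR2-/- mice 3 and 6 together, 2 were lower. Mice of the same number did not consistently deviate together (correlations -0.33 to 0.31, 3 of 7 above 0.1). These correlations cannot show whether the numbers mark a shared batch or order, which was not tested. With the replicate block, 1 was higher (Srebf1), and Mvk (adjusted p = 0.0583) and Lss (0.0844) were not called. Over all genes the block gave 314 higher and 272 lower in place of 494 and 515, and leaving out a mouse gave 276 to 659 higher and 293 to 724 lower. The upper quartile gave 616 higher and 377 lower. Of the other lipid genes, DESeq2 gave 2 higher, and leaving out a mouse 0 to 4 higher and 2 to 7 lower (7 without WT 7). Signs of changes near 0 turned on leaving out a mouse: Sc5d (-0.020 to 0.028; below 0 without LPAR2-/- 3 or 5 or WT 1, 3, 4 or 5), Scd1 (-0.070 to 0.073; below 0 without LPAR2-/- 3 or 4 or WT 5, and -0.043 without mice 3 and 6) and Scd2 (-0.11 to 0.011; above 0 without LPAR2-/- 6). The cause was not tested. Idi1 rested on 9 to 31 counts per mouse, and what set its spread was not tested.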
